A study of Arabidopsis thaliana with 12 samples.

Results

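LHCB1.5 (AT2G34420, also named LHB1B2) is a nuclear gene of Arabidopsis thaliana. It encodes an antenna protein that binds chlorophylls a and b and passes light energy to photosystem II. Its transcript was read by 1 of 3439 probes on the array, probe 2665, the single probe whose platform annotation names this locus and no other, and it is 1 of 689 genes with such a probe. Its locus fixed the probe, but the gene was chosen by its intensities on these arrays, high in untreated plants and lower with DCMU. Its levels and its difference between groups are therefore given as a description, without a test. The 12 arrays were made from total RNA of wild-type plants of the C24 ecotype. In 6 of them the plants had grown in light specific for photosystem II and had been given the electron transport inhibitor DCMU, and in the other 6 they had grown in that light without the inhibitor. The labels give no dose, duration, tissue or plant age.

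DCMU, also known as diuron, occupies the site on photosystem II where electrons pass to plastoquinone, so that the plastoquinone pool is no longer reduced by photosystem II. Light absorbed mainly by photosystem II has the opposite effect on the pool in untreated leaves. LHCB1 proteins, with LHCB2 and LHCB3, form the trimers of the main antenna complex, LHCII, which gathers light for photosystem II. When the pool is reduced, a thylakoid kinase phosphorylates part of LHCII, which then serves photosystem I. LHCB genes lie in the nucleus, and their transcript levels are known to respond to light, the circadian clock and signals from the chloroplast.

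LHCB1.5 belongs to a family of close copies, of which LHCB1.4 (AT2G34430) is the next locus beside it on chromosome 2 in the TAIR10.1 gene table. Of the 15 LHCB loci looked for, LHCB1.5 alone had a probe annotated to it and to no other gene. The probe's sequence was not used here, so how far it also reads the other LHCB1 copies was not tested.

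On the DCMU arrays numbered 1 to 6, the LHCB1.5 probe gave intensities of 10.9, 10.8, 8.94, 8.23, 10.3 and 11.0 in the authors' scaled units. On the untreated arrays with the same numbers it gave 23.5, 22.0, 19.8, 18.7, 25.4 and 24.4. Every DCMU array lay below every untreated array, with a gap between 11.0, the highest DCMU value, and 18.7, the lowest untreated value. Such a separation, with all 6 DCMU arrays lower, was found in 5.61% of the 3278 features measured, and the gene was chosen with this contrast in view.

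**Figure D1:**
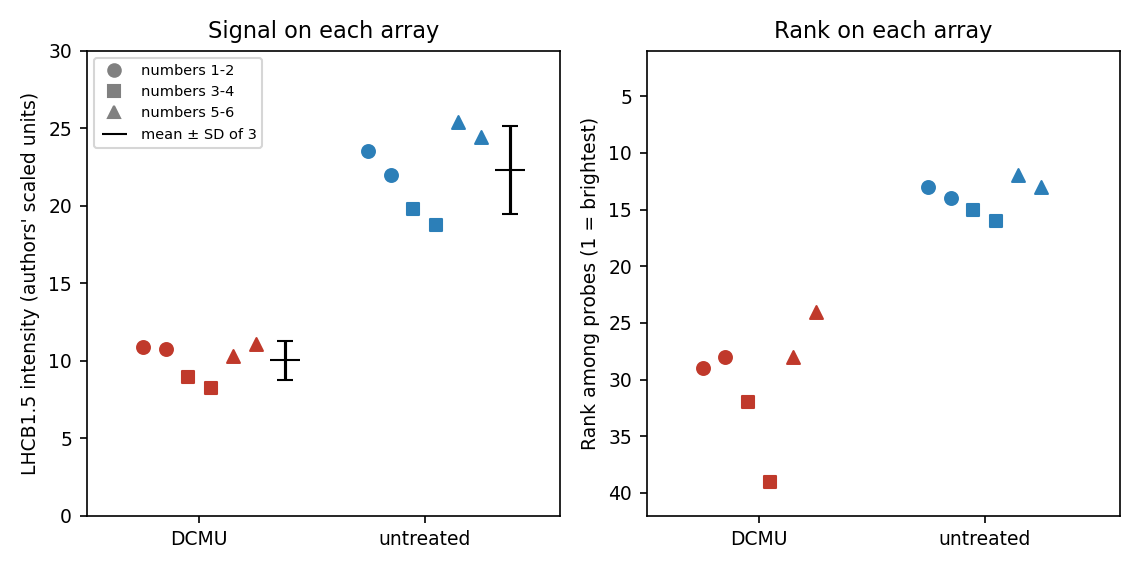
Left, intensity of the LHCB1.5 probe on each array in the authors' scaled units, DCMU in red and untreated in blue, with symbols for the paired numbers and a bar for the mean ± SD of the 3 paired readings. Right, the rank of the probe among the 3439 probes of each array, where 1 is the brightest; the DCMU arrays lie between 24 and 39 and the untreated arrays between 12 and 16.

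Numbers 1 and 2, 3 and 4, and 5 and 6 behaved as paired readings in both groups, and the mean of the log2 values of each pair served as 1 reading. LHCB1.5 then stood at 10.8, 8.58 and 10.7 in DCMU plants, against 22.7, 19.3 and 24.9 in untreated plants. The readings averaged 10.02 ± 1.25 in DCMU plants and 22.3 ± 2.85 in untreated plants (SD, n = 3 each). This is a log2 difference of -1.15, or a signal 2.22-fold lower with DCMU. In bulk RNA, fewer green cells in a sample and less of the transcript per cell cannot be told apart.

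Numbers 3-4 gave the lowest reading of LHCB1.5 in both groups. The fold between groups varied less over the paired numbers than the levels did. Within the number pairs 1-2, 3-4 and 5-6 the signal was 2.101-, 2.245- and 2.335-fold lower in DCMU plants. The log2 difference had an SD of 0.077 over the 3 pairs, while the log2 level had an SD of 0.19 within each group. Among the 409 features in the brightest eighth, which had a median SD of 0.21 for this paired difference, 35 had a smaller one than LHCB1.5. Its SD between the readings of a group was ordinary for bright features, which had a median SD of 0.15 among DCMU readings and 0.16 among untreated readings.

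Taken array by array, the signal was 2.16-, 2.04-, 2.21-, 2.28-, 2.47- and 2.21-fold lower on DCMU arrays 1 to 6 than on the untreated arrays of the same number. The fold was smallest on number 2 and largest on number 5. Within a pair, the readings of LHCB1.5 differed by a mean of 0.078 on the log2 scale in DCMU plants and 0.077 in untreated plants. The bright features had medians of 0.079 and 0.083 for the same gap.

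LHCB1.5 ranked 29th, 28th, 32nd, 39th, 28th and 24th of 3439 probes by signal on DCMU arrays 1 to 6. It ranked 13th, 14th, 15th, 16th, 12th and 13th on untreated arrays 1 to 6. A rank orders probe signals, which depend on each probe as well as on its transcript, and is no order of RNA amounts. The share of the array's summed signal taken by this probe was 0.267% ± 0.0327 in DCMU plants and 0.602% ± 0.0815 in untreated plants (SD, n = 3 each). As a multiple of the array's median probe, LHCB1.5 stood at 12.9 to 16.6 on DCMU arrays and at 29.3 to 42.0 on untreated arrays. The groups stayed apart on each of these scales.

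Array totals ran from 3643 to 3768 scaled units, between 3.93% and 4.22% of probes on an array were listed at 0, and 2 probes reached the highest value in the table, 100, on 11 occasions. The LHCB1.5 probe, with a highest value of 25.4, was far from both ends. None of the markers fixed for non-green or senescing tissue (root-type ferredoxin FD3, its reductases RFNR1 and RFNR2, and the protease SAG12) had a probe of its own, so the part of such tissue in the difference was not tested.

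From the largest fall up, the log2 difference of LHCB1.5 ranked 18th of 3278 features and 4th of the 651 with a gene name. The median feature had a log2 difference of 0.10, and the median of the brightest eighth was 0.03. Among those 409 bright features 11 had a lower log2 difference than LHCB1.5, and among the 74 of them with a gene name 2 had. By array number, LHCB1.5 ranked between 18th and 35th of all features in this order, and between 3rd and 7th of the named ones.

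**Figure D2:**
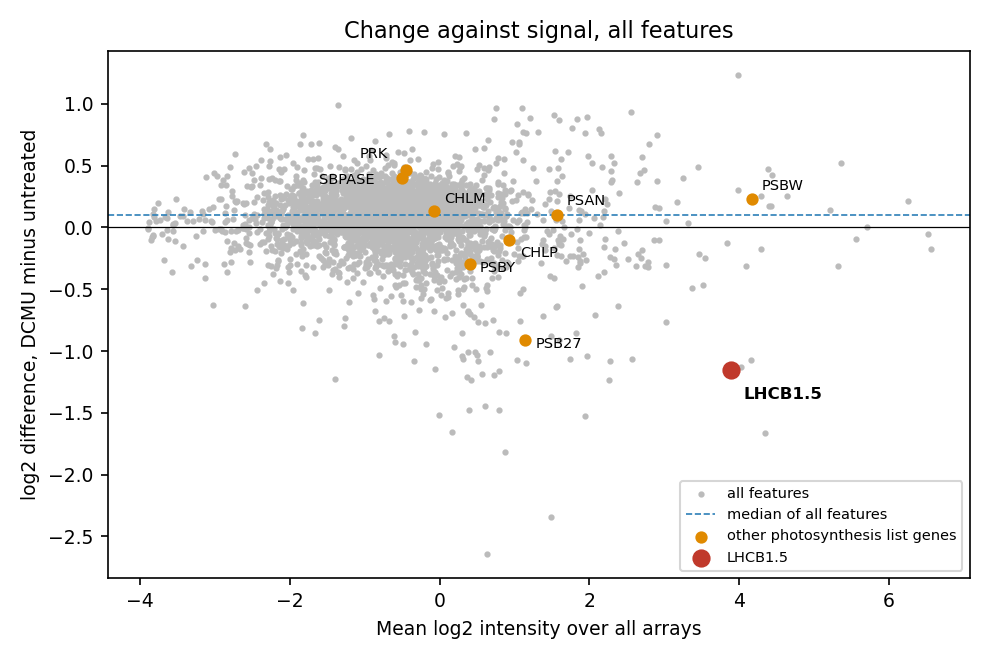
Log2 difference (DCMU minus untreated) against mean log2 intensity over all arrays for the 3278 features in grey, with LHCB1.5 in red and the 8 other measured genes of the photosynthesis lists in orange. The dashed line is the median of all features at 0.10. LHCB1.5 stands at -1.15, apart from the dense cloud, and PSBW, brighter in the mean over all arrays, stands at 0.23. In untreated plants LHCB1.5 was the brighter of these, with a mean of 22.3 against 16.6 for PSBW.

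The other genes of photosynthesis were taken from 9 lists with 121 loci in all, LHCB1.5 among them. Besides LHCB1.5, 8 of these genes had a probe of their own. Of the 8, 1 was lower in DCMU plants and 7 did not pass (limma, adjusted over all features), in a comparison where 5.09% of all features were called, 3.17% lower and 1.92% higher. The median log2 difference of the 8 was 0.12, beside 0.10 over all features. With the paired numbers as a block 1 was lower and 2 were higher, against 6.56% and 10.7% of all features, 17.3% together.

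PSB27, a lumenal protein that binds photosystem II during its assembly and repair, was the list gene that fell. Its lowest, median and highest intensities were 1.29, 1.63 and 1.92 on DCMU arrays, against 2.57, 2.98 and 3.63 on untreated arrays. The groups did not overlap, and the readings averaged 1.62 ± 0.250 in DCMU plants and 3.03 ± 0.378 in untreated plants (SD, n = 3 each; limma, adjusted p = 0.00410). Unlike LHCB1.5, PSB27 did not have its lowest DCMU reading in numbers 3-4: its lowest DCMU intensities were on arrays 1 and 3. With the floor under dim values raised to the 10th percentile its adjusted p was 0.0529 (limma; 2.51e-05 to 0.0529 over all alternatives).

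PSBW and PSBY, small subunits of the photosystem II core, did not pass. PSBW had lowest, median and highest intensities of 17.5, 18.8 and 23.8 on DCMU arrays, against 14.9, 16.8 and 18.2 on untreated arrays, and the groups overlapped. Its log2 difference was 0.23 (95% interval -0.04 to 0.51; limma, adjusted p = 0.259), positive on all 6 numbers. PSBW is the list gene nearest to LHCB1.5 in signal, ranked 17th among features by mean log2 level where LHCB1.5 ranked 23rd. PSBY had a log2 difference of -0.30 (95% interval -0.62 to 0.02; limma, adjusted p = 0.231), negative on all 6 numbers.

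Outside photosystem II, none of the 5 list genes passed without the block, and 2 of them had an unadjusted p under 0.05 (limma). PSAN, a lumenal subunit of photosystem I, had a log2 difference of 0.10 (95% interval -0.12 to 0.32). In chlorophyll synthesis, which makes the pigments that antenna proteins bind, the methyltransferase CHLM was at 0.13 (-0.16 to 0.43) and the geranylgeranyl reductase CHLP, which makes the phytol chain, at -0.10 (-0.35 to 0.14). The Calvin cycle enzymes phosphoribulokinase (PRK) and sedoheptulose bisphosphatase (SBPASE) were at 0.46 (0.11 to 0.82) and 0.40 (0.11 to 0.69). Both missed the threshold without the block (limma, adjusted p = 0.121 and 0.111) and passed with it (adjusted p = 0.0326 and 0.0279). With the block on median-centred arrays, neither passed (limma, adjusted p = 0.115 for PRK and 0.0607 for SBPASE). The lists of photosystem I antenna, antenna protein targeting, antenna gene regulators and electron transport had no gene with a probe of its own.

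**Figure D3:**
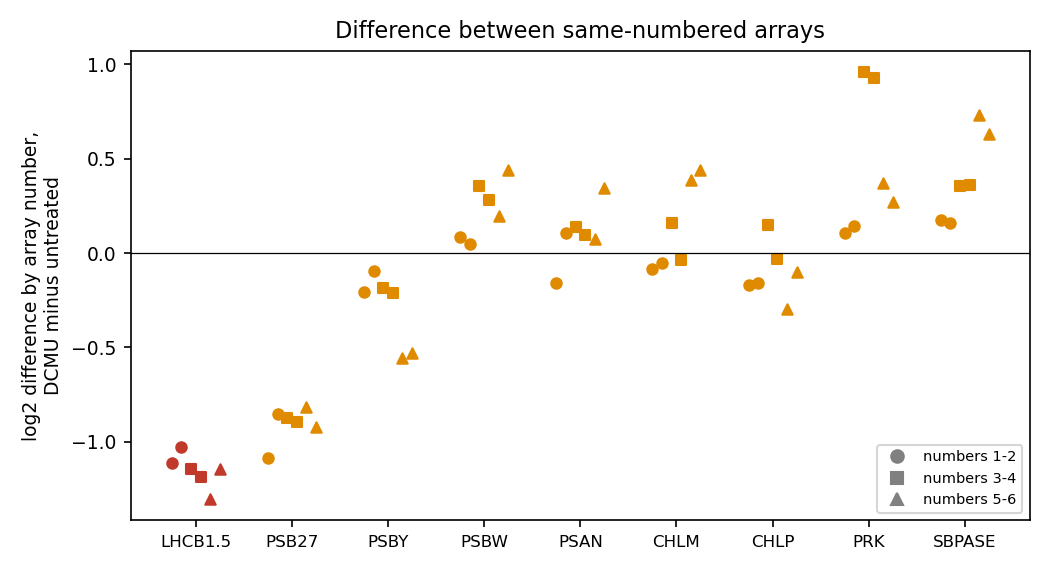
Log2 difference between the DCMU and the untreated array of the same number for LHCB1.5 in red and the 8 other list genes in orange, with symbols for the paired numbers. All 6 differences of LHCB1.5 lie between -1.30 and -1.03, while PSBW, PRK and SBPASE lie above 0 on every number.

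Among features with a gene name, 5 had a profile over the 12 arrays nearest to that of LHCB1.5. Likeness was the root mean square difference of the log2 profiles, each centred on its own mean, so it follows from the difference between groups for the most part. A flat profile would lie 0.60 away, and the median named feature lay 0.68 away. AT3G04210, of the TIR-NBS disease resistance family, was nearest at 0.20 and had a signal 2.28-fold lower with DCMU. AT2G36480 followed at 0.21 and 2.22-fold lower, AT3G50130 at 0.22 and 1.92-fold lower, and AT5G11550 at 0.24 and 2.11-fold lower. PSB27 was the fifth at 0.26 and 1.88-fold lower.

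AT2G36480 had the low values at numbers 3-4 that LHCB1.5 has in both groups. Its intensities on arrays 3 and 4 were 0.549 and 0.464 in DCMU plants, against 1.05 and 0.883 in untreated plants, the lowest of each group. AT3G04210 instead had its highest DCMU intensities, 1.23 and 1.17, on those numbers.

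**Figure D4:**
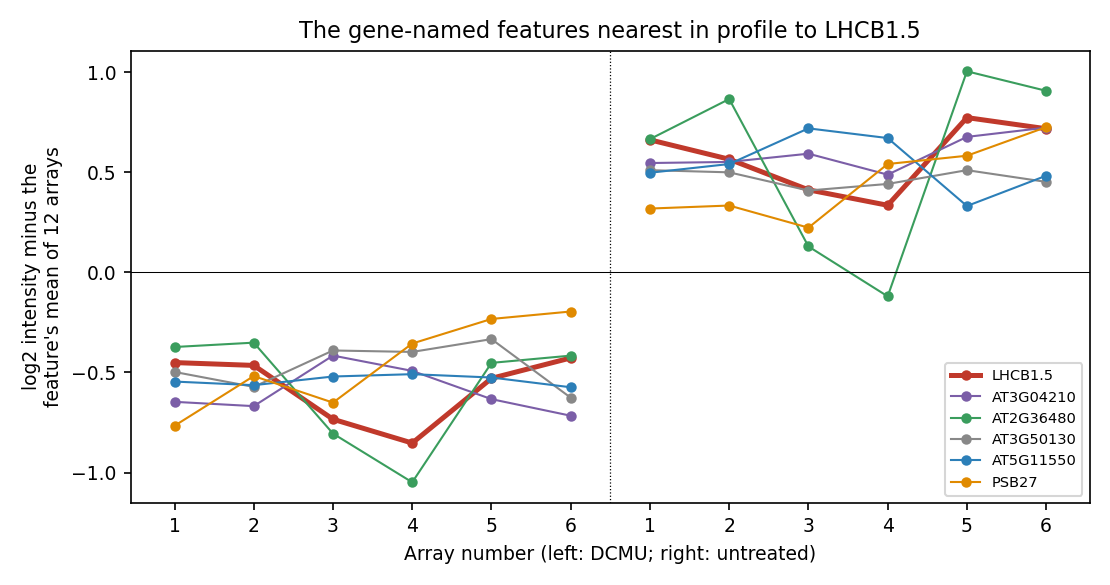
Log2 intensity minus the feature's own mean of 12 arrays, by array number, with DCMU on the left and untreated on the right, for LHCB1.5 (thick red line) and the 5 gene-named features nearest to it. All 6 features lie below 0 on every DCMU array, and all but AT2G36480 on array 4 lie above 0 on every untreated array.

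Around LHCB1.5 in the order of signal, 30 features lay within 15 places, at ranks 8 to 38. They include probes 2689 and 2677, ranked 18th and 20th, whose profiles over the 12 arrays lay nearest of all to that of LHCB1.5. Of these 30, 5 were lower with DCMU and 1 was higher (limma), where 3.17% and 1.92% of all features were. With the paired numbers as a block 6 were lower and 5 higher, where 6.56% and 10.7% of all features were. A negative log2 difference was found in 13 of the 30, and in 1 it was lower than that of LHCB1.5. Their median log2 difference was 0.10, the same as over all features. Only 5 of the 30 had a gene name, and none of these 5 passed, without or with the block (limma, adjusted p without it between 0.192 for AT4G17070 and 0.641 for AT2G27290). At an unadjusted p under 0.05 limma gave 1 of the 5 without the block and 3 with it. They included PSBW and NdhS, a subunit of the chloroplast NADH dehydrogenase-like complex, which was at 0.21 (95% interval -0.13 to 0.54). AT4G31530 was at 0.43 (-0.01 to 0.86), AT4G17070 at 0.30 (0.01 to 0.59) and AT2G27290 at 0.14 (-0.26 to 0.55).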

How the data were processed

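The deposited table holds 1 intensity per probe and array on a linear scale, scaled by the authors before deposit, as far as the values show. How the arrays were scanned, corrected and scaled is not stated in the sources. Of 3439 probes, 692 were annotated to 1 gene, 870 to several and 1877 to none, and 690 of the 692 matched the RefSeq TAIR10.1 gene table. A floor of 0.0669, taken at the 1st percentile of values above 0, was applied before log2. The 160 probes at or under it on every array were left out, and probes of the same single gene were averaged, giving 3278 features. The comparison used limma 3.58.1 under R 4.3.3 (lmFit, eBayes, two-sided, Benjamini-Hochberg over all features, threshold 0.05). The fit was tested on simulated data with independent readings, so that check does not cover the pairing of the numbers. Figures were drawn with matplotlib 3.10.9.

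Over features, departures from the group mean correlated at 0.36 to 0.67 within the paired numbers and at -0.58 to -0.11 between others, so pairs were averaged. Across groups, the same paired numbers correlated at 0.38 to 0.44 and different ones at -0.38 to 0.01. Because departures from a mean cancel out, the negative values follow in part from this step, and only the positive ones bear on pairing. The numbers were therefore taken to pair the readings. The main fit left this pairing across groups out all the same, and the fit with the pairs as a block was given as an alternative. The main fit called 167 features and the fit with the block 566. The labels do not say whether the readings come from separate plants, so p-values measure only the spread between these readings, which may be technical. The number of arrays limits the precision.

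The gene and the lists were chosen with earlier results of these data known. Named were LHCB1.5, every list gene with a probe of its own, the 5 named features nearest in profile, and the named features within 15 places in level. Alternatives were other scalings, floors, filters and variance models, the block, 12 separate arrays, and leaving out each reading.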

Additional observations from a re-analysis of the deposited data

How the results depend on the processing

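The log2 difference of LHCB1.5 was -1.15 as scaled and with the replicate block, -1.23 after median centring, with or without the block, and -1.14 after quantile normalization, and -1.26 to -1.05 when 1 reading was left out. Its level rank of 23 became 22 by the linear mean and 21 to 24 without 1 reading. The 167 features called (104 lower, 63 higher) became 206 after median centring (150 lower, 56 higher), 110 with the higher floor, 566 with the replicate block (215 lower, 351 higher), 502 with the block after median centring (327 lower, 175 higher) and 1089 with 12 separate arrays (322 lower, 767 higher), which counts paired readings singly. Leaving out 1 reading gave 77 to 282: 77 without DCMU 1-2, 90 without DCMU 5-6, 82 without untreated 1-2, 282 without untreated 3-4 (123 lower, 159 higher, which turns the balance) and 87 without untreated 5-6. Of the 8 other list genes, 1 passed as fitted, 0 with the higher floor (limma, 2 at an unadjusted p under 0.05), 3 with the block, 1 with the block after median centring, which loses PRK and SBPASE, and 5 with 12 separate arrays. CHLM, not called, was at -0.00703 to 0.24 without 1 reading. The cause of these shifts was not tested. Without background values, a dim level cannot be told from none.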

Other observations

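These values were singled out after the data were seen. Another probe, 3446, is annotated to 3 genes, all of them light-harvesting antenna genes of the photosystems, and was given no gene name. Its lowest, median and highest intensities were 1.56, 1.73 and 1.83 on DCMU arrays, against 1.79, 2.15 and 2.31 on untreated arrays, so the groups overlapped. The log2 difference was -0.29 (95% interval -0.55 to -0.03). Limma's adjusted p was 0.171, or 0.0690 with the replicate block. It was 0.0104 with 12 separate arrays, which counts paired readings singly, and 0.0509 to 0.375 over the other alternatives. The DCMU array was lower on all 6 numbers.

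Nearer in profile to LHCB1.5 than any named gene were 11 features, 10 of them without a gene in the annotation used and 1 annotated to several. The nearest, probe 2689, lay 0.079 away on the log2 scale and averaged 12.4 ± 1.89 in DCMU plants and 26.0 ± 2.65 in untreated plants (SD, n = 3 each). The next, probe 2677, lay 0.098 away and averaged 11.1 ± 1.76 in DCMU plants and 24.1 ± 2.37 in untreated plants. Both have their lowest readings at numbers 3-4 in each group, as LHCB1.5 does, and both are brighter than LHCB1.5. The identifiers 2665, 2677 and 2689 are 12 apart. One step of 12 before LHCB1.5, CCL (probe 2653) was at a log2 difference of 0.57, against -1.15, -1.13 and -1.08 for the 3 probes. What probes 2677 and 2689 read, and where the probes lie on the array, is not given in the sources used here. Probe 4315, the third nearest at 0.10, has the same pattern at a lower signal, 1.53 ± 0.210 in DCMU plants and 3.26 ± 0.362 in untreated plants (SD, n = 3 each).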
